A study of Homo sapiens with 6 samples.

Results

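Genes that mark the sympathoadrenal lineage and its peptide-secreting granules were followed in SH-SY5Y cells carrying a dominant-negative form of TRF2. The set lists 10 genes: the transcription factor genes GATA3, GATA2, PHOX2A and HAND2, the catecholamine enzyme genes TH and DBH, the granule protein genes CHGA and CHGB, and the neuropeptide genes VIP and NPY. A spot belonged to the set where the platform annotation, brought to current symbols by gene ID, gave it 1 of these names. That found 13 of the 9169 spots tested, for 6 of the 10 genes: 4 spots of GATA2, 3 each of GATA3 and CHGA, and 1 each of CHGB, VIP and DBH. TH, PHOX2A, HAND2 and NPY had no spot so named and were not analysed here. The genes were selected on lineage and on measured values: their differences between DN-TRF2 and GFP control arrays were known when they were listed, so those differences are described below and not tested.

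SH-SY5Y is an established human neuroblastoma line. The 3 GFP control samples were transfected with the vector pEGF-C2 without an insert, and the 3 DN-TRF2 samples with pIRES2-EGFP carrying dominant-negative TRF2, a form of the telomere-binding shelterin protein that interferes with the cell's own TRF2. All 6 samples were kept in geneticin at 500 µg/ml and collected on day 7 after transfection, in 3 independent experiments. The vectors differ between the groups as well as the insert, so vector and insert cannot be told apart, and each sample is a selected population in which the share of cells expressing the insert was not given. Each RNA was made into radioactive cDNA and read on 1 cDNA array.

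Sympathetic neurons and adrenal chromaffin cells arise from a common neural crest progenitor. GATA2, GATA3, PHOX2A and HAND2 belong to the transcription factor network that installs and maintains their noradrenergic identity. TH begins catecholamine synthesis, and DBH converts dopamine to noradrenaline inside the granule. Chromogranins A and B, encoded by CHGA and CHGB, are acidic proteins that pack the cores of dense granules, from which peptides such as VIP and NPY are released together with amines. Neuroblastoma is a tumour of this lineage, and SH-SY5Y is used as a model of immature sympathetic neurons.

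At 2 of the 13 spots every DN-TRF2 array lay above every GFP control array: the spot of VIP and the second of the 3 spots of GATA3. The second spot of CHGA was the lowest in difference, with a lower value on the DN-TRF2 array in each pair of same-numbered arrays. At the other 10 spots, which include the other spots of GATA3 and CHGA and all spots of GATA2, CHGB and DBH, the difference was smaller than the larger of the SDs within the groups or its sign turned when an array was left out. In the limma fit across the array 0 of 9169 spots (0.0%) had an adjusted p below 0.05, and 313 (3.41%) had an unadjusted p below it. None of the 13 spots therefore passed.

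The groups did not overlap in the higher direction at 4.28% of all spots and in the lower direction at 4.43%. Against these shares stand 2 and 0 of the 13 spots, counts about which nothing is read because the genes were listed with this comparison known. The difference was above 0 at 9 of the 13 spots, against 47.3% of all spots. Its median was 0.060 over the 13 spots and -0.011 over all spots (log2 of DN-TRF2 over GFP control on the normalized scale, to which an offset of 50 had been added). By gene, with spots averaged, 3 of the 6 genes were above 0 and 3 below, with a median of 0.021. Of the 6255 named genes 48.0% were above 0. Nothing is read from these counts either.

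Signal is given here as a multiple of the array's median intensity, which ran from 480 to 712 on the 6 arrays, and differences are on the offset log2 scale with standard errors from the fit over all spots. The offset understates the change of dim spots. Spots of 1 gene are numbered by their position on the array. They differed widely in brightness, by 21.0-fold between the brightest and dimmest spot of GATA2, 10.7-fold for CHGA and 2.70-fold for GATA3. Over the 1481 genes with at least 2 spots, the mean log2 signal at the first and last spot correlated at only 0.138 across genes, which are not independent replicates. Their differences shared a sign in 51.0% of these genes. The annotation may be wrong for some spots. Values are therefore compared between arrays within a spot, and each is that of the spot so annotated, not a settled value of the gene. On GFP control replicate 2 the correlation with the other control arrays across spots was 0.954 and 0.963, below the 0.980 between those arrays. Among the spots of the set, differences that turned sign or moved by over 1.5 times without GFP control replicate 2 are named with their spots. For the further lineage genes and markers described below, differences without that array are not given, so their dependence on it is open.

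**Figure D1:**
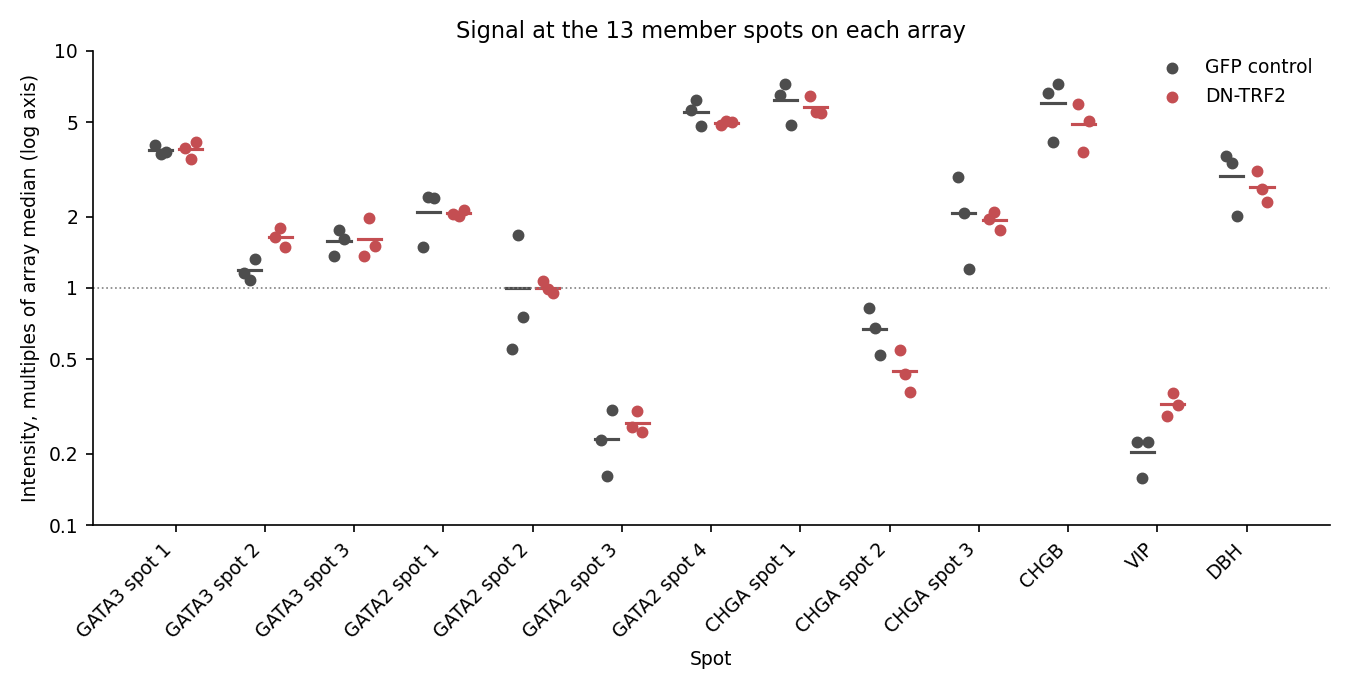
Intensity at each of the 13 spots on each of the 6 arrays, as multiples of the array's median, on a logarithmic axis. Points are arrays in replicate order, short lines are group means of 3 arrays, and the dotted line marks the array median. The VIP spot and GATA3 spot 2 are those where the groups do not overlap, with VIP at 0.158 to 0.225 in the controls and 0.287 to 0.362 in DN-TRF2.

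GATA3 encodes a zinc finger transcription factor that is needed for development of sympathetic neurons and for their noradrenergic enzymes. At GATA3 spot 2 (array position 7851) the GFP control arrays read 1.15, 1.08 and 1.33 times the array median and the DN-TRF2 arrays 1.64, 1.79 and 1.49. All 3 DN-TRF2 arrays were the higher ones, with no overlap. The group means were 1.19 ± 0.125 and 1.64 ± 0.152 (SD, n = 3 arrays per group), a ratio of 1.38, and the difference was 0.45 ± 0.15 (SE, log2), against SDs within the groups of 0.143 and 0.130. It ranked at the percentile of 98.3 among the differences of all spots.

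The other GATA3 spots did not show a difference of that size. GATA3 spot 1 (position 3759), the brightest, read 4.00, 3.66 and 3.73 in the controls and 3.89, 3.49 and 4.13 in DN-TRF2, and differed by 0.10 ± 0.15, or 0.040 without GFP control replicate 2. GATA3 spot 3 (position 7976) read 1.37, 1.75 and 1.60 in the controls and 1.36, 1.97 and 1.51 in DN-TRF2, and differed by 0.064 ± 0.17, or 0.11 without GFP control replicate 2. The groups overlapped at both spots, and at each the difference was smaller than the SE. All 3 spots had a difference above 0, which occurred for 12.7% of the 284 genes with 3 spots. At spot 3 the sign turned, to -0.089 without DN-TRF2 replicate 2, the array that was highest there, and to -0.021 without GFP control replicate 1, while it was kept at spots 1 and 2 under all 13 alternative settings.

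GATA2 encodes a related GATA factor that acts beside GATA3 in the sympathetic lineage and is also known from blood stem cells. Its 4 spots differed little between the groups. GATA2 spot 4 (position 8823), the brightest, read 5.62, 6.18 and 4.83 in the controls and 4.87, 5.05 and 5.00 in DN-TRF2, a difference of -0.025 ± 0.14, or 0.014 without GFP control replicate 2. GATA2 spot 1 (position 97) read 1.49, 2.41 and 2.39 against 2.05, 2.01 and 2.13, a difference of 0.057 ± 0.19, or 0.13 without GFP control replicate 2. At spot 1 the DN-TRF2 arrays lay between the lowest control and the other controls.

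GATA2 spot 2 (position 599) varied most among the controls, which read 0.551, 1.68 and 0.757, while DN-TRF2 arrays read 1.07, 0.993 and 0.948. GFP control replicate 2 was the high one there, and the SD was 0.730 in the controls and 0.084 in DN-TRF2 (log2). The difference of 0.18 ± 0.30 came to 0.58 without GFP control replicate 2 and to -0.13 without GFP control replicate 1. GATA2 spot 3 (position 8482) was dim, at 0.228, 0.162 and 0.304 in the controls and 0.260, 0.302 and 0.246 in DN-TRF2, and its difference of 0.12 ± 0.17 came to -0.00020 without GFP control replicate 2. The groups overlapped at all 4 GATA2 spots, and the sign of each turned when 1 array was left out.

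DBH, the enzyme of noradrenaline synthesis, has 1 spot (position 8292), bright at a signal percentile of 78.0. It read 3.58, 3.35 and 2.00 times the array median in the controls and 3.10, 2.60 and 2.30 in DN-TRF2. The DN-TRF2 arrays lay within the range of the controls, which was set by GFP control replicate 3 as the lowest. The difference was -0.040 ± 0.20, and leaving out GFP control replicate 3, 1 or 2 moved it to -0.26, 0.11 or 0.031.

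Chromogranin A was represented by 3 spots that did not behave alike. At CHGA spot 2 (position 3195) the controls read 0.822, 0.675 and 0.520 and DN-TRF2 0.547, 0.432 and 0.363. The lowest control lay just under the highest DN-TRF2 array, so the groups overlapped by that pair of arrays alone. The means were 0.672 ± 0.151 and 0.447 ± 0.0927 (SD, n = 3 arrays per group), a ratio of 0.665, and the difference was -0.53 ± 0.20, at the percentile of 0.327 among all spots. Its sign was kept under all 13 alternatives, with -0.40 without GFP control replicate 1 and -0.69 without GFP control replicate 3.

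The brighter CHGA spots showed no such difference. CHGA spot 1 (position 1138), among the brightest spots of the set at a signal percentile of 93.3, read 6.51, 7.26 and 4.85 in the controls and 6.42, 5.52 and 5.48 in DN-TRF2, a difference of 0.036 ± 0.15. Its sign depended on the scaling, at -0.074 when arrays were scaled to a common median in place of quantile normalization and -0.019 without normalization, and the difference came to 0.14 without GFP control replicate 2. CHGA spot 3 (position 8284) read 2.94, 2.07 and 1.20 in the controls and 1.96, 2.09 and 1.76 in DN-TRF2, a difference of 0.060 ± 0.26. That difference came to 0.35 without GFP control replicate 1 and to -0.25 without GFP control replicate 3. With median scaling it was -0.0024. GFP control replicate 3 was the lowest control at all 3 CHGA spots, as it was at DBH.

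Chromogranin B, which shares the granule core with chromogranin A, has 1 spot (position 931). It read 6.66, 4.11 and 7.22 in the controls and 5.95, 3.73 and 5.07 in DN-TRF2. Here GFP control replicate 3 was the highest array, and replicate 2 was the lowest array in both groups. The difference of -0.18 ± 0.28 was smaller than the control SD of 0.585, and leaving out GFP control replicate 2 or replicate 3 moved it to -0.48 or 0.12.

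VIP encodes the precursor of vasoactive intestinal peptide, a neuropeptide that sympathetic neurons and neuroblastoma cells make and that signals through receptors coupled to cAMP. Its spot (position 5644) was dim, at a signal percentile of 17.8, so the offset weighs on its difference. The controls read 0.225, 0.158 and 0.225 times the array median and DN-TRF2 0.287, 0.362 and 0.322. All 3 DN-TRF2 arrays were above all controls. The means were 0.203 ± 0.0386 and 0.324 ± 0.0372 (SD, n = 3 arrays per group), a ratio of 1.60, and the difference was 0.46 ± 0.14, at the percentile of 98.5 among all spots. The ratio on the offset scale was 1.38. The difference stayed above 0 in the 12 alternatives that kept this spot, between 0.37 with an offset of 100 and 0.58 with an offset of 10.

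**Figure D2:**
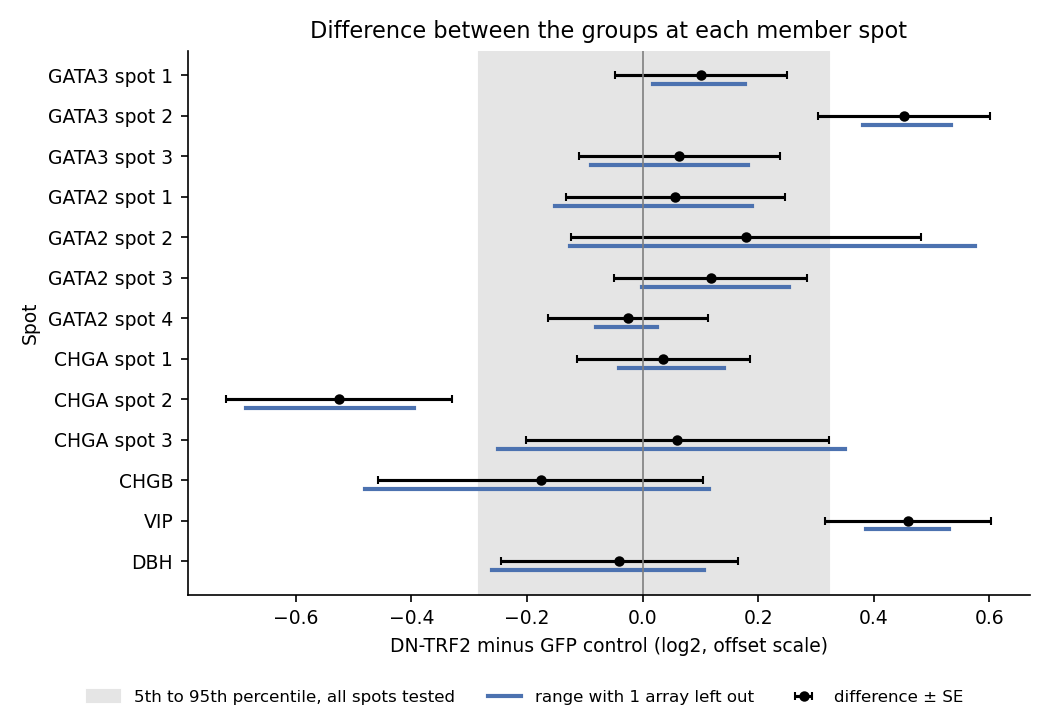
Difference between the group means at each of the 13 spots (black points, log2 of DN-TRF2 over GFP control on the offset scale; bars are standard errors, n = 3 arrays per group). Blue lines span the values with 1 array left out, and the grey band spans the 5th to 95th percentile of all 9169 spots, from -0.28 to 0.32. GATA3 spot 2, VIP and CHGA spot 2 lie outside the band, and 9 of the blue lines cross 0.

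The numbers 1 to 3 of the samples occur in both groups, and arrays of the same number deviated together, which allows a view of the differences pair by pair. At VIP these were 0.26, 0.71 and 0.41 for replicates 1, 2 and 3. At GATA3 spot 2 they were 0.46, 0.72 and 0.18. Both spots were higher in DN-TRF2 in all 3 pairs, as was GATA3 spot 1 at 0.056, 0.072 and 0.17, while 11.0% of all spots had that pattern. CHGA spot 2 was lower in all 3 pairs, by -0.53, -0.61 and -0.44, a pattern found at 14.7% of all spots. The remaining 9 spots had pairs of both signs. CHGA spot 3 ran from -0.52 in pair 1 to 0.56 in pair 3, and GATA2 spot 2 from 0.88 in pair 1 to -0.64 in pair 2.

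**Figure D3:**
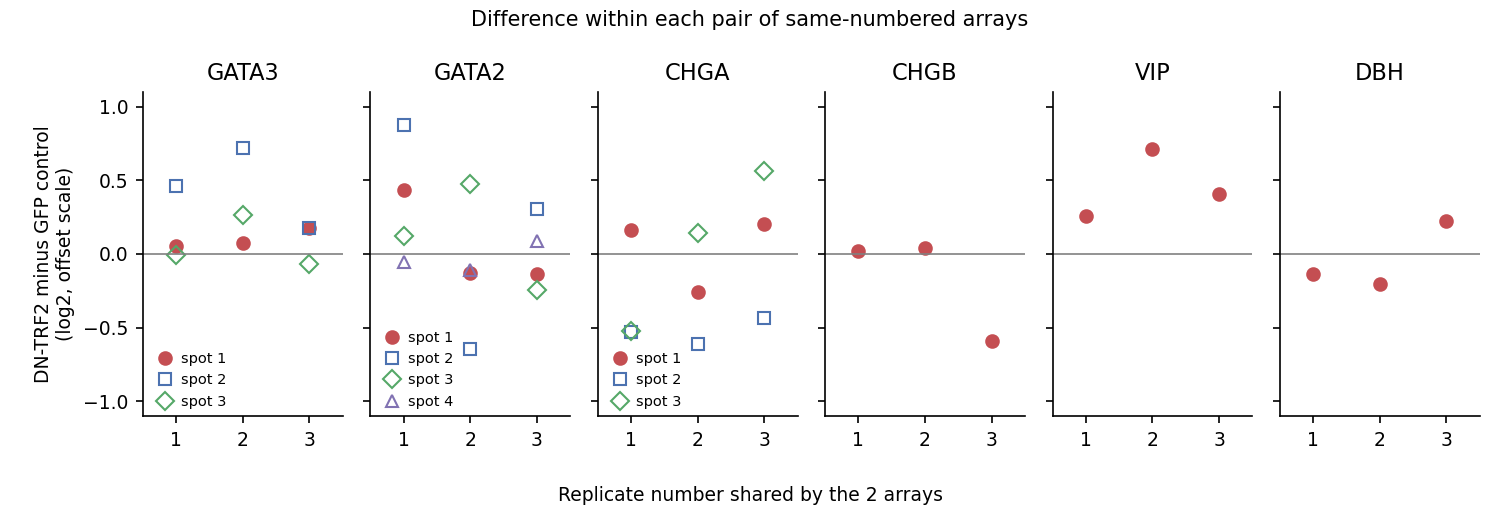
Difference between the DN-TRF2 and the GFP control array of the same replicate number (log2, offset scale), with a panel per gene and a symbol per spot. VIP is above 0 in all 3 pairs and CHGA spot 2 below 0 in all 3, whereas the points of GATA2, CHGB and DBH fall on both sides of 0.

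The promoters of VIP, CHGA and DBH were set side by side because these 3 genes of the set carry the core of a cAMP response element, TGACGT, in the 250 bases before their start. CREB family factors bind this element, and it is well known from studies of VIP and chromogranin A. The stretches are from RefSeq (GRCh38.p14), plus strand, written 5′ to 3′ with the matched letters in capitals.
VIP, chr6:152750673-152750768: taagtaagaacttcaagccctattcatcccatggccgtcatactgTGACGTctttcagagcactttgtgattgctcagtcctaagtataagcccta
CHGA, chr14:92923051-92923148: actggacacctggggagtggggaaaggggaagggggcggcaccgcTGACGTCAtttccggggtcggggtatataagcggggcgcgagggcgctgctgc
DBH, chr9:133636137-133636232: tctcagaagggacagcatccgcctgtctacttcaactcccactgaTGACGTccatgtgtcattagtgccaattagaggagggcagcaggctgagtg

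The first base of the core lies 79 bases before the start of VIP, 54 before that of CHGA and 181 before that of DBH. In CHGA the letters extend to the palindrome TGACGTCA, whose strands overlap. TGACGT was searched on both strands. It is held by 7.10% of the 35116 stretches of 250 bases before a start, and TGACGTCA by 1.65%. By gene, with a match at any start counted, the shares of 27305 genes were 8.62% and 2.03%. Of the 10 genes, 8 had a promoter entry; CHGB and TH had none. No TGACGT lies in these windows of GATA2, GATA3, PHOX2A, HAND2 and NPY. GATAA, the core that GATA factors recognise, was found on either strand in the windows of VIP, HAND2 and 1 of the 6 starts of GATA3. It occurs in 20.4% of all stretches and at any start of 24.2% of all genes. A match in letters is a description of the window. Among the genes with the cAMP core, the VIP spot differed by 0.46, the DBH spot by -0.040 and the CHGA spots by 0.036, -0.53 and 0.060.

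Further genes of the same lineage were taken from lists written down for this comparison, and none of their spots passed. In genes of catecholamine synthesis, storage and uptake, 7 of 14 listed were measured; 6 had a mean difference above 0 and 1 below, with a median of 0.14, against 48.0% above 0 and a median of -0.0067 over the 6255 named genes. PTS, which makes the pterin cofactor of tyrosine hydroxylase, differed by 0.34 ± 0.19. PCBD1, which recycles that cofactor, differed by 0.19 ± 0.13, and its DN-TRF2 arrays at 0.373, 0.382 and 0.423 lay above its controls at 0.349, 0.307 and 0.323. CYB561, a granule membrane cytochrome that supplies electrons to DBH, disagreed between its spots, at 0.54 ± 0.21 and -0.19 ± 0.17. SLC18A1, the amine transporter of chromaffin granules, was below 0 at both spots, at -0.011 ± 0.15 and -0.065 ± 0.15.

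Transcription factor genes of the lineage were thinly covered, with 5 of 20 listed genes measured and all 6 of their spots below the median signal. Of these 2 had a difference above 0 and 3 below, with a median of -0.046. MYCN, the neuroblastoma oncogene, differed by -0.16 ± 0.15, HAND1, a relative of HAND2, by 0.12 ± 0.14, and EPAS1, a hypoxia-inducible factor, by -0.12 ± 0.14. At each of these spots the groups overlapped.

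Granule proteins and prohormone-processing enzymes, with 7 of 15 listed genes measured, had 2 genes above 0 and 5 below, with a median of -0.072. FURIN, a protease that cleaves precursors at basic residues, differed by -0.32 ± 0.28, with GFP control replicate 2 at 0.954 as the high array and the other controls both at 0.403. PTPRN, a granule membrane protein, differed by 0.17 ± 0.17, and PAM, the enzyme that amidates peptides such as VIP, by -0.12 ± 0.18. None of the 7 spots separated the groups.

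Among neuropeptides and their receptors 8 of 33 listed genes were measured, 4 above 0 and 4 below, with a median of -0.015. NTS, the neurotensin precursor, was like VIP a dim spot on which the groups did not overlap: its controls read 0.155, 0.154 and 0.171 and its DN-TRF2 arrays 0.213, 0.260 and 0.239, a difference of 0.34 ± 0.14. VIPR2, a receptor of VIP, was among the dimmest spots, at a signal percentile of 2.44, with a difference of -0.15 ± 0.13. Its DN-TRF2 arrays lay below all controls on the normalized scale only. As multiples of the array median the groups overlapped, with DN-TRF2 replicate 1 at 0.029 above GFP control replicate 2 at 0.0285. ADM, the adrenomedullin precursor, differed by -0.21 ± 0.17.

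Of 14 listed trophic and nicotinic receptors 4 were measured, 2 above 0 and 2 below, with a median of -0.028. CHRNA3, the nicotinic receptor subunit through which ganglionic neurons receive their input, was lower without overlap at 1 dim spot of its 4, by -0.43 ± 0.16, and differed by 0.0038 ± 0.17 at its brightest. RET, a receptor for glial-derived neurotrophic factors, differed by -0.32 ± 0.18 at the brighter of its spots, and its other spot stood at or under the stand-in value of 10 on all 6 arrays, so that no difference is given there. NTRK3, a neurotrophin receptor, differed by 0.18 ± 0.14.

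**Figure D4:**
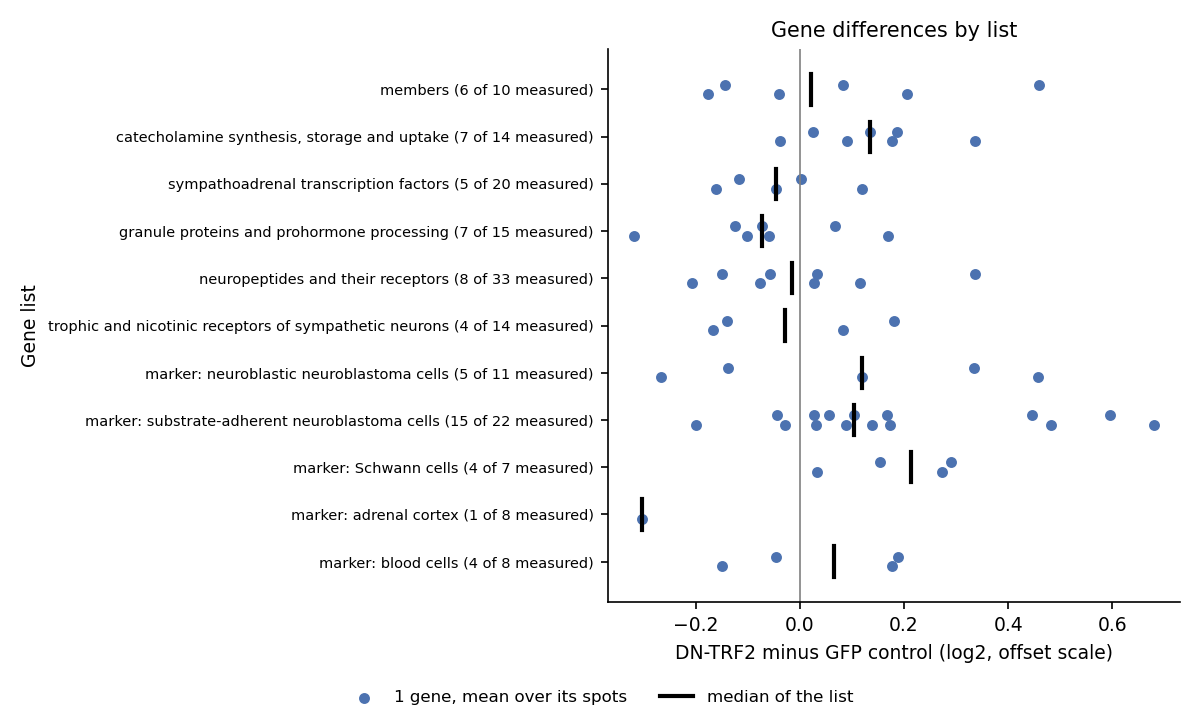
Mean difference of each measured gene over its spots (points, log2 of DN-TRF2 over GFP control on the offset scale) by list, with the median of the list as a black line; the row named members holds the 6 measured genes described above. Points fall on both sides of 0 in most lists, and the highest values, TIMP1 at 0.68 and S100A6 at 0.59, belong to the markers of substrate-adherent cells.

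Markers of cell types were read beside these values. For the neuroblastic phenotype that SH-SY5Y is labelled with, DBH, CHGB and CHGA spots 1 and 3 lay above the median signal, and CHGA spot 2 below it. Of the 8 spots of the neuroblastic list 5 were above the median, among them STMN2, a neuronal microtubule protein, and GAP43, a growth cone protein. Of the 25 spots of the substrate-adherent list 13 were above it, so brightness did not set the neuroblastic markers apart. Brightness is also a weak guide to a gene's level on this array. STMN2 differed by 0.33 ± 0.17 and GAP43 by 0.46 ± 0.18, while NEFM, a neurofilament, differed by -0.27 ± 0.19; of the 5 measured markers 3 were above 0 and 2 below, with a median of 0.12. Of the markers of substrate-adherent neuroblastoma cells 15 of 22 were measured, 12 of them above 0, with a median of 0.10. The mean log2 level of that list, each gene centred on its own mean, ran from -0.15 to -0.051 on the control arrays and from 0.018 to 0.13 on the DN-TRF2 arrays. The list was chosen with earlier results of these data known, so nothing is read from this separation. Its largest differences were TIMP1 at 0.68, S100A6 at 0.59 and CAV2 at 0.48. The 3 genes below 0 were VIM at -0.20, FN1 at -0.029 and ANXA1 at -0.043. The 4 measured Schwann cell markers of 7 were all above 0, with a median of 0.21, and their level ran from -0.36 to 0.13 in the controls and from 0.0010 to 0.21 in DN-TRF2. SOX10 was above 0 only on average, with its spots at 0.19 ± 0.16 and -0.12 ± 0.16. The groups overlapped at all 5 spots of this list, and nothing is read from it. Of 8 blood cell markers 4 were measured, 2 on each side of 0, with a level of -0.059 to 0.038 in the controls and -0.16 to 0.24 in DN-TRF2. The 2 above 0, HBB and CD14, were dim, at signal percentiles of 3.02 and 25.2. The 2 below 0, LYZ and CD68, were brighter, at 86.5 and 61.3, and the spots of the Schwann cell marker SOX10 stood at 84.4 and 76.8. Markers of other lineages were therefore not all dim. HBB and CD14 were higher in DN-TRF2 without overlap, as the dim VIP and NTS spots were, by 0.19 ± 0.14 and 0.18 ± 0.13. Other dim spots went the other way without overlap on the normalized scale, among them 1 of CHRNA3 at -0.43 and that of VIPR2 at -0.15. Over all spots 4.28% were higher and 4.43% lower without overlap, so dim spots are not read as rising together. STAR, the 1 adrenal cortex marker measured of 8, differed by -0.30 ± 0.24. No marker list had a spot at or under the value of 10 on any array except 1 spot of the neuroblastic list. The part of these cell types in the values of VIP, GATA3 and CHGA was not tested. In RNA from whole cultures, fewer cells of a type and less RNA per cell cannot be told apart.

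The spread within the groups set what could be seen. The median SD over the 13 spots was 0.257 in the controls and 0.123 in DN-TRF2 (log2), close to 0.242 and 0.131 over all spots. The control SD was the larger at 9 of the 13 spots, against 78.0% of all spots. The SDs in the controls and in DN-TRF2 were 0.113 and 0.123 at VIP, 0.143 and 0.130 at GATA3 spot 2, and 0.302 and 0.249 at CHGA spot 2.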

How the data were processed

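The deposited table holds linear intensity values of 6 one-channel arrays, as the authors gave them; the sources used here do not give the image software, background treatment or scaling. Per the labels' protocols about 5 µg of total RNA was labelled per sample. The value 10 recurs as a stand-in for no signal. It fills nearly all of the 384 positions at each 25th spot, of which 0 have a gene name; of the 9600 spots these were removed, as were 47 more that stood at 10 on every array, leaving 9169. Gene names come from the platform annotation, of which 8514 of 8517 spots matched the current gene table; 8451 tested spots had 1 symbol, 21 several and 697 none listed. Values plus an offset of 50 were log2-transformed and quantile-normalized. limma 3.58.1 in R 4.3.3 (lmFit, eBayes; two-sided, Benjamini-Hochberg over all spots, threshold 0.05) was fitted on the whole table and tested on simulated data; standard errors are the moderated ones. The number of arrays limits precision, and p-values measure the spread between 3 arrays per group.

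The members and lists were chosen with earlier results of these data known. Named were every member spot and, per lineage list, up to 3 genes of largest mean difference; SLC18A1 was added after its values were seen, as were the marker genes named. Arrays of replicate 1, 2 and 3 deviated from their group means together across spots, with correlations of 0.390, 0.296 and 0.246 between the groups, and arrays were therefore read as pairs; the pairing comes from the values. Alternatives were offsets of 10 and 100, median scaling, no normalization, leaving out the dimmest quartile, no spot filter, a replicate block, and each array left out.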

Additional observations from a re-analysis of the deposited data

How the results depend on the processing

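Under all 13 alternatives 0 spots passed limma's adjusted p. Spots at an unadjusted p under 0.05, 313 in the fit as reported, ranged from 81 without normalization to 792 without GFP control replicate 2. With the replicate block there were 527, and the block changed no call; the median difference of the 13 spots stayed at 0.060. Leaving out 1 array, that median ran from 0.0090 (GFP control replicate 1) to 0.098 (GFP control replicate 3), and it was 0.0099 with median scaling. The sign was kept throughout at 4 spots (GATA3 spots 1 and 2, CHGA spot 2 and VIP) and turned under at least 1 alternative at the other 9. Under median scaling GATA2 spot 4 moved by more than its SD, to -0.14. Leaving out the dimmest quartile removed VIP and GATA2 spot 3, so these have no value there. Depth in the sense of signal over background is unknown, because blank positions hold a stand-in value.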
